A study of Macaca mulatta with 24 samples.

Results

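Death receptor signaling genes were followed in the whole blood of rhesus macaques during the week after a 4 Gy total body irradiation. The genes were TNFSF10, TNFRSF1A, TNFRSF1B, FADD, TRADD, RIPK1, USP2, CASP8 and CFLAR, and they were taken by name: every non-control probe whose gene name in the scanner output was one of these 9 was included. Of the 9 genes, 7 had at least 1 probe, among 15045 gene symbols on the array. They carried 14 of 43603 non-control probes. FADD had no probe under that name, and TRADD had none by the rule. The series holds 24 one-colour arrays of globin-cleared RNA from blood drawn into PAXgene tubes. There were 7 pre-irradiation arrays (labelled day 0 and dose 0; the methods place the draw before exposure), 4 arrays at day 3, 6 on day 5 and 7 at day 7. The animals were adult Macaca mulatta of Chinese origin. The same animals were drawn before and after exposure, and the arrays hold no animal left unirradiated over the week. The labels call the exposure X-rays and the methods describe a cobalt gamma source. Replicates 1 to 4 were male and replicates 5 to 7 female. Day 3 held 3 males and 1 female, and day 5 held 4 males and 2 females.

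Death receptors are cell surface members of the tumor necrosis factor receptor superfamily. A ligand brings receptor chains together, adaptors such as TRADD and FADD gather on their cytoplasmic tails, and the assembled complex can either activate NF-kappaB through RIPK1 and its ubiquitin chains or cleave and activate CASP8, which starts apoptosis. CFLAR resembles CASP8 but lacks its protease activity and holds CASP8 in check. In blood, myeloid cells carry much of the tumor necrosis factor receptor message, and lymphocytes are among the blood cells most readily killed by radiation.

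The array measures each gene through 60-letter probes, and for several of these genes the probe sequence bears on how a value can be read. The probe sequences below were copied from the deposited scanner files, whose headers place them on the rheMac2 build; the annotation given with the files names the gene but not the exon. CFLAR is shown because a pair of its probes lies on the same bases of chromosome 12, at chr12:64900179-64900238 and chr12:64900188-64900247 on the plus strand; capitals mark the 51 letters they share. The third CFLAR probe, of which the first 30 letters are shown, lies 15012 bases away at chr12:64885107-64885166, so it samples another stretch of the gene.
CFLAR, overlapping probe: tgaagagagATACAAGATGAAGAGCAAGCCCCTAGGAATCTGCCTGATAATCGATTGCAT
CFLAR, brightest probe: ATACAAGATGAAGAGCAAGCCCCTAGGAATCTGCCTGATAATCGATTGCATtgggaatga
CFLAR, the third probe: atttcagtcttcaagaaagaatctgggatc

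TNFRSF1B is shown because its probes differ in how much sequence they share with probes of other genes. The brightest shares at least 20 consecutive letters with 56 other probes on the array, which carry 24 different gene symbols. In all, 49 of its 60 letters occur in such a shared run. The other TNFRSF1B probe, printed here in lower case throughout, lies at chr1:15321223-15321282 on the plus strand and shares no run of 20 letters with a probe of another gene.
TNFRSF1B, probe without shared sequence: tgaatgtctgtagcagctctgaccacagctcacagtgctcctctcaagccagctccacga

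The brightest TNFRSF1A probe, at chr11:6445330-6445389 on the minus strand, holds 2 copies of a 27-base unit, and capitals mark 1 copy in the 30 letters printed. USP2 is shown because it was called on every day and rests on a single measurable probe, at chr14:117769580-117769639 on the minus strand.
TNFRSF1A, brightest probe: GGATGAGAGACGCTATGCCTCATGCCCgga
USP2, brightest probe: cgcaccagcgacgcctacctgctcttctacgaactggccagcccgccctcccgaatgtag

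Values are log2 of the processed signal after each array was shifted to the median array, and a change is the difference between the means of a day and of pre-irradiation on that scale. A change was called when limma's Benjamini-Hochberg adjusted p over all probes tested was under 0.005, the false discovery rate of the study's methods, and "rose" or "fell" is used only for called changes. A gene was represented by its brightest probe. On a single array, between 48.3% and 61.2% of all probes were well above background. Scan time split the arrays into 2 sessions: session 1 held 6 pre-irradiation and 6 day 7 arrays, and session 2 held 1 pre-irradiation array (replicate 5), all day 3 and day 5 arrays and 1 day 7 array. Session and time point can hardly be told apart at days 3 and 5, where a comparison inside session 2 rests on that lone pre-irradiation array, assumed to vary as the other groups do. At day 7, 6 arrays could be set against 6 inside session 1. A comparison of day 7 with day 3 or day 5 mostly sets session 1 against session 2.

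**Figure D1:**
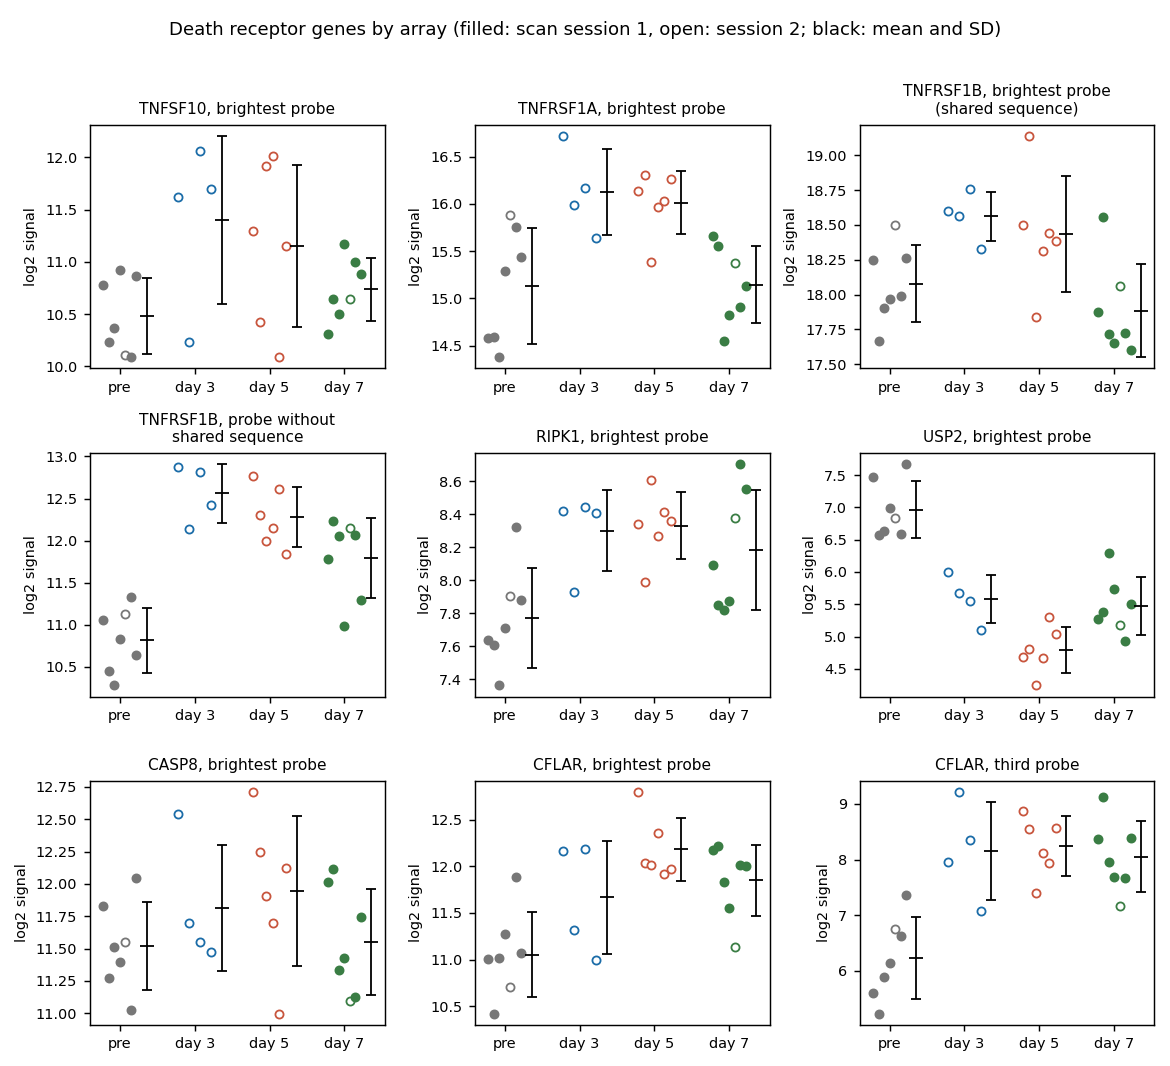
Signal of 9 probes of the death receptor genes on each array, as log2 signal on the vertical axis, by time point. Each point is an array (filled for scan session 1, open for session 2), and the black bars give the mean and SD; USP2 lies below every pre-irradiation array on all 3 days, while the TNFRSF1B probe without shared sequence lies above every one of them at days 3 and 5.

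Few of the 7 measured genes passed the test. By the brightest probe, USP2 fell on all 3 days and CFLAR rose at day 5. That is 1 of 7 genes at day 3, 2 of 7 on day 5 and 1 of 7 at day 7, beside 13.5%, 15.4% and 9.86% of all genes with a symbol on the same days. Higher calls were 0, 1 and 0 of 7 beside 5.96%, 6.24% and 2.67% of all genes, and lower calls 1, 1 and 1 of 7 beside 7.58%, 9.12% and 7.19%. Values at an unadjusted p under 0.05 were found for 5, 5 and 3 of the 7 genes, beside 46.9%, 43.9% and 38.2% of all genes. The median change over the 7 genes was 0.53 at day 3, 0.56 on day 5 and 0.03 at day 7, where the median over all genes was -0.00, -0.00 and -0.01. Day and pre-irradiation arrays did not overlap for 1, 2 and 1 of the 7 genes, beside 21.2%, 13.4% and 8.08% of all genes. Over the 13 probes tested, 1 was called higher and 1 lower at day 3, 3 higher and 1 lower on day 5, and 1 higher and 1 lower at day 7, beside 13.5%, 16.7% and 10.9% of all probes called in either direction.

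**Figure D2:**
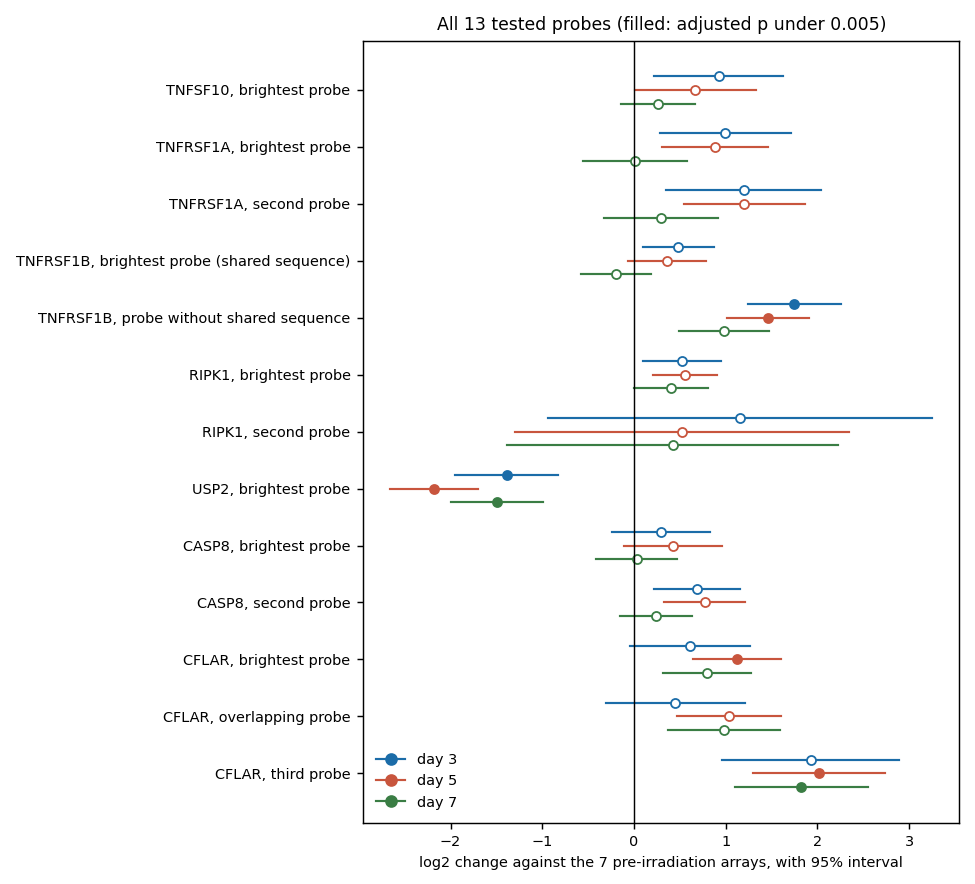
Log2 change of each of the 13 tested probes against the 7 pre-irradiation arrays, with its 95% interval, on days 3, 5 and 7. Filled points passed the adjusted threshold of 0.005: USP2 on all 3 days, the TNFRSF1B probe without shared sequence at days 3 and 5, the brightest CFLAR probe on day 5 and the third CFLAR probe at days 5 and 7.

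Among the ligands, TNFSF10 (TRAIL), which binds death receptors and is induced by interferon, was spread more widely on the day 3 and day 5 arrays (SD 0.80 and 0.77) than before irradiation (SD 0.37), a difference in spread that was not tested. Its log2 signal was 10.09 to 10.92 (median 10.36) on the pre-irradiation arrays. At day 3 it read 11.62, 10.23, 12.06 and 11.70 in replicates 1, 2, 4 and 7, and at day 5 it ran from 10.09 to 12.02 (median 11.22). Thus 3 of 4 day 3 arrays and 4 of 6 day 5 arrays lay above every pre-irradiation array, while replicate 2 stayed inside the earlier range at day 3. At day 7 the range was 10.31 to 11.17 (median 10.65), back over most of the pre-irradiation range. The changes were 0.92 (SE 0.32, limma adjusted p = 0.0422) at day 3, 0.67 (SE 0.31, limma adjusted p = 0.103) on day 5 and 0.26 (SE 0.19, limma adjusted p = 0.332) at day 7, none of them called.

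TNFRSF1A, the widely expressed receptor for tumor necrosis factor that carries a death domain, was brighter on most arrays of days 3 and 5 than before irradiation and was back in its earlier range at day 7. The brightest probe read 14.38 to 15.88 (median 15.29) before irradiation. It read 16.72, 15.99, 16.17 and 15.64 in replicates 1, 2, 4 and 7 at day 3, 15.38 to 16.30 (median 16.08) on day 5 and 14.55 to 15.66 (median 15.13) at day 7. Of the arrays, 3 of 4 at day 3 and 5 of 6 on day 5 lay above every pre-irradiation array, and none did at day 7. The change was 0.997 (SE 0.33, limma adjusted p = 0.0332) at day 3, 0.88 (SE 0.27, limma adjusted p = 0.0197) on day 5 and 0.01 (SE 0.27, 95% interval -0.56 to 0.58) at day 7. The second TNFRSF1A probe gave 1.2 at both day 3 (limma adjusted p = 0.0313) and day 5 (limma adjusted p = 0.00796), and 0.30 (limma adjusted p = 0.481) at day 7. No TNFRSF1A change passed the threshold. All arrays of days 3 and 5 were in scan session 2, and most pre-irradiation and day 7 arrays were in session 1. Session and time point can hardly be told apart for this course of TNFRSF1A. With quantile normalization the day 5 change of the brightest probe was 1.25 with a limma adjusted p of 0.0033, which would be called.

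TNFRSF1B, the tumor necrosis factor receptor without a death domain, which is found mainly on blood and endothelial cells, gave different answers by probe. The probe without shared sequence read 10.28 to 11.33 (median 10.83) before irradiation, and 12.88, 12.14, 12.81 and 12.42 in replicates 1, 2, 4 and 7 at day 3. It read 11.84 to 12.77 (median 12.23) at day 5 and 10.99 to 12.23 (median 12.05) on day 7. Every day 3 and day 5 array lay above every pre-irradiation array, as did 5 of 7 day 7 arrays. By this probe TNFRSF1B rose by 1.75 (SE 0.23, 3.36-fold, limma adjusted p = 0.000391) at day 3 and by 1.46 (SE 0.21, 2.76-fold, limma adjusted p = 0.000155) on day 5. The day 7 change of 0.98 (SE 0.23, limma adjusted p = 0.00576) missed the threshold. It was called under 5 alternatives, the looser threshold of 0.05 among them, and not under 15. With a replicate number left out it ran from 0.85 to 1.12 (limma adjusted p 0.00346 to 0.0264). The calls at days 3 and 5 held with any single replicate number left out, with changes of 1.66 to 1.84 at day 3 and 1.40 to 1.52 on day 5. With scan session as a block they were 1.43 (limma adjusted p = 0.0833) and 1.15 (limma adjusted p = 0.115), inside session 2 the same changes had limma adjusted p of 0.186 and 0.166, and inside session 1 the day 7 change was 0.97 (limma adjusted p = 0.0153). With normexp background the changes at days 3 and 5 were 1.57 (limma adjusted p = 0.0499) and 0.86 (limma adjusted p = 0.213), and neither call remained.

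The brightest TNFRSF1B probe, the one that stands for the gene under the rule, showed no called change. It read 17.67 to 18.50 before irradiation, with changes of 0.48 (limma adjusted p = 0.0523), 0.36 (limma adjusted p = 0.176) and -0.19 (limma adjusted p = 0.449) on days 3, 5 and 7. The 55 tested probes that share letters with it changed by a median of 0.76, 0.33 and -0.73 on those days, and their Pearson correlation with it over the 24 arrays ran from 0.70 to 0.99 (median 0.84). Its correlation with the other TNFRSF1B probe was 0.55. These are descriptions over arrays that share animals. The choice to read the gene through the other probe was made after the sequences and values had been seen.

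The adaptors could not be read under the rule. FADD, which links death receptors to CASP8, has no probe here by name. TRADD, which links TNFRSF1A to RIPK1, is named in the description of a probe on chromosome 20 whose gene name is a transcript identifier, so that probe lies outside the rule; it read 11.49 to 11.88 before irradiation and changed by -0.01 (limma adjusted p = 0.969), -0.05 (limma adjusted p = 0.792) and -0.26 (limma adjusted p = 0.147) on days 3, 5 and 7.

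RIPK1, the kinase on which survival and death signals from TNFRSF1A meet, was slightly brighter after irradiation by its brightest probe without passing the test. The signal was 7.36 to 8.32 (median 7.71) before irradiation. At day 3 it was 8.42, 7.93, 8.44 and 8.41 in replicates 1, 2, 4 and 7, at day 5 7.99 to 8.61 (median 8.35) and on day 7 7.82 to 8.70 (median 8.09). The ranges overlapped on every day, with 3 of 4, 4 of 6 and 3 of 7 arrays above all pre-irradiation arrays. The changes were 0.53 (limma adjusted p = 0.0522), 0.56 (SE 0.16, limma adjusted p = 0.0164) and 0.41 (limma adjusted p = 0.123).

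The second RIPK1 probe separated animals rather than days. Its signal was 6.51 to 7.08 on the 4 arrays of replicate 2, 7.51 to 8.31 on the 4 arrays of replicate 4 and 6.0 to 6.60 on the 2 arrays of replicate 5. On all arrays of replicates 1, 3, 6 and 7 it was 3.00 to 4.97, and it was not well above background on any array of replicates 1 and 3. It was well above background on all 4 arrays of replicate 2 and all 4 of replicate 4. Its changes by day were 1.16, 0.53 and 0.42, with standard errors of 0.96, 0.85 and 0.85, none called, and its correlation with the brightest RIPK1 probe over the 24 arrays was 0.02.

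USP2, a deubiquitinase that has been linked to RIPK1 and the tumor necrosis factor receptor complex, was the only one of the 7 genes called lower, and it was called on every day. Before irradiation its signal read 7.47, 6.57, 6.64, 6.99, 6.84, 6.58 and 7.67 in replicates 1 to 7. At day 3 it read 5.99, 5.67, 5.55 and 5.10 in replicates 1, 2, 4 and 7, at day 5 it ran from 4.24 to 5.30 (median 4.75), and on day 7 from 4.92 to 6.30 (median 5.37). Every irradiated array lay below every pre-irradiation array. USP2 fell by 1.39 on the log2 scale (SE 0.26, 2.62-fold, limma adjusted p = 0.00208) at day 3, by 2.18 (SE 0.22, 4.52-fold, limma adjusted p = 1.07e-05) on day 5 and fell by 1.498 (SE 0.24, 2.82-fold, limma adjusted p = 0.000349) at day 7.

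The USP2 probe is dim, and that bears on the size of these changes. It was well above background on all 7 pre-irradiation and all 4 day 3 arrays, on 3 of 6 day 5 arrays and on 6 of 7 day 7 arrays. The other USP2 probe was well above background on 0 of 24 arrays and was not tested. With a different background correction (normexp on the mean and local background signals, offset 50), the changes shrank to -0.51 (limma adjusted p = 0.509), -0.19 (limma adjusted p = 0.700) and -0.56 (limma adjusted p = 0.385), and no call remained. Inside scan session 1 the day 7 change was -1.47 (limma adjusted p = 0.00205), still called. With session as a block, day 3 gave -1.27 (limma adjusted p = 0.156) and day 5 gave -2.05 (limma adjusted p = 0.0161); inside session 2 the same values had limma adjusted p of 0.226 and 0.0323. The day 3 call was lost when replicate 1 (-1.44), 2 (-1.49), 4 (-1.37) or 7 (-1.11) was left out and, at -1.60 (limma adjusted p = 0.0127), when the animals were blocked. The calls at days 5 and 7 held with any replicate number left out and with the block.

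Erythroid and B cell genes fell over the same days as USP2. Of 9 erythroid genes, 8, 9 and 8 were called lower on days 3, 5 and 7, beside 7.58%, 9.12% and 7.19% of all genes. Their median changes were -3.51, -5.97 and -4.77. Their summed signal was 1340000 to 3200000 before irradiation, 350000 to 844000 at day 3, 81900 to 131000 on day 5 and 20700 to 957000 at day 7. The list holds the globin genes HBA1, HBB and HBM, and the RNA was globin-cleared. CA1 at days 3 and 5 and SLC4A1 on day 5 were not well above background on any array, and none of the 9 genes was dim on every array before irradiation or at day 7. All 7 tested B cell genes were called lower on each day, beside those same shares of all genes. Their summed signal was 30000 to 41500 before irradiation and at most 4440 afterwards. Fewer cells of a type and less RNA per cell cannot be told apart in whole blood, and the part of these lists in the USP2 change was not tested. Over the 24 arrays, which share animals, the Pearson correlation of the USP2 signal with the mean of the erythroid genes was 0.81, and 0.03 after the group means were subtracted; with the mean of the B cell genes it was 0.86, and 0.17 within groups. With the 5 other marker lists it ran from -0.53 (monocyte) to 0.19 (T cell), and within groups from -0.18 (T cell) to 0.33 (platelet). These are descriptions.

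**Figure D3:**
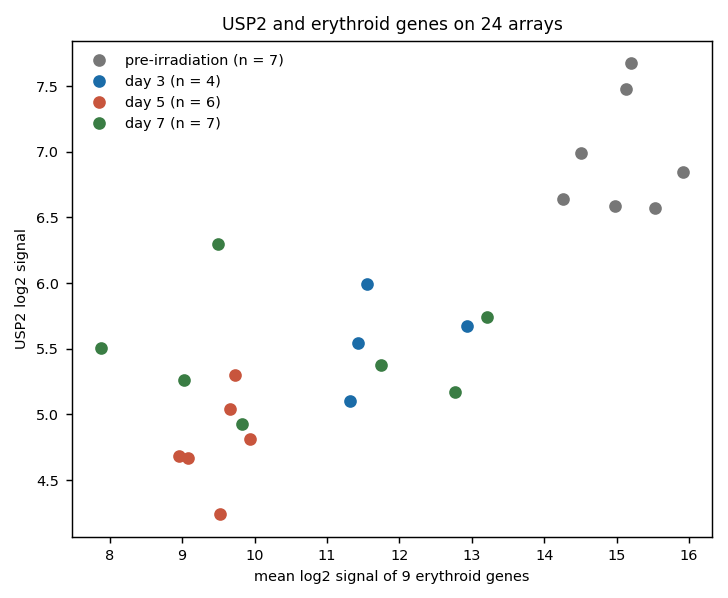
USP2 log2 signal on the vertical axis against the mean log2 signal of 9 erythroid genes on the horizontal axis, for each of the 24 arrays, coloured by time point. Pre-irradiation arrays lie at the upper right with erythroid means of 14.26 to 15.92, and the day 7 arrays spread from 7.88 to 13.21 on the erythroid axis at USP2 signals of 4.92 to 6.30.

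The genes whose brightest probes were most like USP2 over the 24 arrays were HR (Pearson r 0.97, and 0.94 after the group means were subtracted), WNT11 (0.97 and 0.86) and CBARP (0.96 and 0.79). The arrays share animals and these are descriptions.

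CASP8, the initiator protease of this pathway, showed no called change. Its brightest probe read 11.02 to 12.05 (median 11.51) before irradiation, 11.48 to 12.54 at day 3, 10.997 to 12.71 (median 12.01) on day 5 and 11.10 to 12.12 (median 11.43) at day 7. The ranges overlapped on every day. The changes were 0.29 (95% interval -0.24 to 0.83), 0.43 (95% interval -0.11 to 0.96) and 0.03 (95% interval -0.41 to 0.47). The second CASP8 probe gave 0.69 (limma adjusted p = 0.0261), 0.77 (limma adjusted p = 0.0108) and 0.24 (limma adjusted p = 0.352), with a correlation of 0.87 between the probes over the 24 arrays.

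CFLAR, the catalytically inactive relative of CASP8 known as c-FLIP, rose. The brightest probe read 10.42 to 11.88 (median 11.02) before irradiation, 12.16, 11.31, 12.19 and 10.998 in replicates 1, 2, 4 and 7 at day 3, 11.92 to 12.79 (median 12.02) on day 5 and 11.14 to 12.22 at day 7. At day 5 all 6 arrays lay above every pre-irradiation array, where the highest pre-irradiation array, 11.88, lay just under the lowest day 5 array, 11.92. The rise at day 5 was 1.13 (SE 0.22, 2.18-fold, limma adjusted p = 0.00166). The changes of 0.61 (SE 0.30, limma adjusted p = 0.131) at day 3 and 0.79 (SE 0.23, limma adjusted p = 0.0170) on day 7 were not called. The overlapping probe gave 0.45, 1.04 and 0.98 (limma adjusted p = 0.329, 0.0078 and 0.0189), none called.

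The third CFLAR probe, on its own stretch of the gene, gave larger changes. It read 5.22 to 7.36 (median 6.14) before irradiation, where 5 of 7 arrays were well above background. It read 7.96, 9.21, 8.35 and 7.08 in replicates 1, 2, 4 and 7 at day 3, 7.40 to 8.88 (median 8.33) on day 5 and 7.16 to 9.12 (median 7.96) at day 7. All 6 day 5 arrays and 6 of 7 day 7 arrays lay above every pre-irradiation array. By this probe CFLAR rose by 2.02 (SE 0.34, 4.04-fold, limma adjusted p = 0.000499) at day 5 and by 1.83 (SE 0.34, 3.55-fold, limma adjusted p = 0.0013) on day 7. The day 3 change of 1.93 (SE 0.44, limma adjusted p = 0.00644) was not called. It was called under 5 alternatives and not under 14, and with a replicate number left out it ran from 1.41 to 2.47. The correlation of the third probe with the brightest probe over the 24 arrays was 0.75, against 0.95 between the overlapping pair.

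The CFLAR call at day 5 by the brightest probe sat near the threshold. It was lost without replicate 1 (0.997), 2 (1.05), 3 (1.15), 4 (1.13) or 7 (1.17), with limma adjusted p between 0.00604 and 0.00909, and with the animals as a block, at 1.07 (limma adjusted p = 0.00809). With scan session as a block it was 1.48 (limma adjusted p = 0.0616), and inside session 2 the limma adjusted p was 0.0784. With normexp background it was 0.50 (limma adjusted p = 0.452). For the third probe the day 7 rise was 2.06 (limma adjusted p = 0.00149) inside session 1; it was lost without replicate 1 (1.67, limma adjusted p = 0.00863) or 3 (1.78, limma adjusted p = 0.00647) and with the animals blocked (1.83, limma adjusted p = 0.00681), and the day 5 rise with session as a block, and inside session 2, was 1.5 (limma adjusted p = 0.201 and 0.170). With normexp background the third probe gave 0.93 (limma adjusted p = 0.0422) at day 5 and 0.88 (limma adjusted p = 0.0564) on day 7, neither called.

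The genes whose brightest probes were most like CFLAR over the 24 arrays were UBR2 (Pearson r 0.88, and 0.80 within groups), LIMK2 (0.87 and 0.82) and HELB (0.87 and 0.70), again as a description.

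Of 6 neutrophil genes tested, 1 was called higher on each of days 3, 5 and 7, and of 7 monocyte genes 2, 2 and 1 were, beside the 5.96%, 6.24% and 2.67% of all genes called higher. At an unadjusted p under 0.05 there were 3, 3 and 1 neutrophil genes and 6, 4 and 5 monocyte genes. The median change was 0.87, 0.89 and 0.39 over the neutrophil genes and 0.97, 0.81 and 0.87 over the monocyte genes. The summed neutrophil signal was 21500 to 63600 before irradiation, 41100 to 104000 at day 3, 46400 to 99000 on day 5 and 26900 to 74300 at day 7. The summed monocyte signal was 75300 to 128000, 110000 to 162000, 84700 to 147000 and 71100 to 146000 at the same points. By limma 0 of 7 T cell genes and 0 of 8 NK cell genes were called on any day, with 4, 2 and 0 T cell genes and 1, 0 and 1 NK cell genes at an unadjusted p under 0.05 on days 3, 5 and 7, and all 8 platelet genes were called higher at day 3, 1 on day 5 and 0 at day 7. As a description over the 24 arrays, each probe was set against the mean of the neutrophil, monocyte, platelet, T cell, B cell, NK cell and erythroid genes, in that order. The Pearson correlations of TNFRSF1A were 0.83, 0.55, 0.72, -0.62, -0.41, -0.05 and -0.31, and within groups 0.87, 0.24, 0.53, -0.27, -0.20, -0.32 and 0.10. Those of the TNFRSF1B probe without shared sequence were 0.69, 0.88, 0.62, -0.68, -0.79, 0.09 and -0.66, and within groups 0.41, 0.73, 0.06, -0.70, -0.14, -0.28 and -0.03. Both receptors had positive correlations with the neutrophil, monocyte and platelet genes and negative ones with the T cell and B cell genes, over all arrays and within groups. TNFRSF1A was closer to the platelet genes than to the monocyte genes. With the NK cell and erythroid genes the sign was not the same throughout. The brightest CFLAR probe gave 0.71, 0.50, 0.23, -0.35, -0.70, -0.30 and -0.79, and within groups 0.59, 0.25, 0.07, -0.46, -0.16, -0.61 and -0.44. The third CFLAR probe gave 0.78, 0.53, 0.47, -0.32, -0.83, 0.09 and -0.71, and within groups 0.67, -0.01, 0.32, -0.20, -0.34, -0.13 and -0.05. The part of these lists in the TNFRSF1A, TNFRSF1B and CFLAR values was not tested.

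Between irradiated days no death receptor gene was called: limma called 0 of 7 genes for day 5 against day 3, 0 of 7 for day 7 against day 5 and 0 of 7 for day 7 against day 3, with 1, 3 and 2 genes at an unadjusted p under 0.05, beside 11.1%, 21.0% and 34.3% of all genes. Of all genes, 0.0368%, 0.00919% and 1.6% were called in these comparisons. TNFRSF1A differed between day 7 and day 5 by -0.87 (SE 0.22, limma adjusted p = 0.0470) and between day 7 and day 3 by -0.98 (SE 0.27, limma adjusted p = 0.0299). The second TNFRSF1A probe gave -0.91 (limma adjusted p = 0.0420) and -0.90 (limma adjusted p = 0.0493). USP2 differed by -0.79 (limma adjusted p = 0.256) between days 5 and 3 and by 0.68 (limma adjusted p = 0.116) between days 7 and 5. Groups did not overlap for 0 of 7 genes in all 3 comparisons, beside 3.45%, 2.54% and 13.5% of all genes. All day 3 and day 5 arrays were in scan session 2 and 6 of 7 day 7 arrays in session 1. Session and time point can hardly be told apart in the comparisons with day 7.

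The response at day 7 was compared between the sexes, with 4 males and 3 females in each group. By limma's interaction test 0 of the 7 genes differed, with 1 at an unadjusted p under 0.05, and 0% of all 10880 genes passed an adjusted p of 0.05. By the brightest probe, the gene with the lowest unadjusted p was TNFRSF1A, whose change was 0.44 in males and -0.56 in females (female minus male -1.0, SE 0.43, limma adjusted p = 0.555). Of the 13 probes tested, 3 had an unadjusted p under 0.05 and 0 an adjusted p under 0.05. The lowest unadjusted p of the 13 was at the third CFLAR probe, where the change was 2.57 in males and 0.83 in females (female minus male -1.74, SE 0.54, limma unadjusted p = 0.00628, adjusted p = 0.404).

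Around these genes, 74 other members of the pathway were listed, 63 had a probe and 62 were tested. At day 3, 8 were called higher and 4 lower; at day 5, 8 and 2; and on day 7, 4 and 2, with TNFRSF10B, a gene that passed the filter on dim probes only through the irradiated arrays, among the higher calls each time. This is 19.4%, 16.1% and 9.68% of the list, and without TNFRSF10B 11, 9 and 5 of 61 genes or 18.0%, 14.8% and 8.2%, beside 13.5%, 15.4% and 9.86% of all genes. The counts of 12, 10 and 6 ran from 4 to 13, 6 to 11 and 2 to 3 when each replicate number was left out in turn. They were 4, 6 and 2 without replicate 1, 4 at day 3 and 2 at day 7 without replicate 4, 7 and 2 on those days without replicate 7, and 3 at day 7 without replicate 2, 3, 5 or 6. With the animals as a block 3 were called at day 3. The shares of all genes above belong to the main fit only, and those under these alternatives are not given. The median change over the list was 0.10, 0.10 and -0.01.

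Of 7 receptors tested, 4, 3 and 2 were called higher and 0 lower on days 3, 5 and 7; without TNFRSF10B 3, 2 and 1 of 6 were called higher, beside 5.96%, 6.24% and 2.67% of all genes. TNFRSF10B, a death receptor for TNFSF10 and a known p53 target, was not well above background on any pre-irradiation array, where it read 3.32 to 4.47. After irradiation it read 6.68 to 7.34 at day 3, 6.58 to 7.498 on day 5 and 6.46 to 8.05 at day 7. It was at least 3.40-fold, 3.50-fold and 4.51-fold higher; because of the way it passed that filter, this is a description only. FAS, the receptor for FASLG, read 8.97 to 10.22 before irradiation, 10.698 to 11.53 at day 3, 10.48 to 11.97 on day 5 and 10.03 to 11.16 at day 7. It rose by 1.48, 1.62 and 1.02 (limma adjusted p = 0.0013, 0.000346 and 0.00368), and the groups overlapped at day 7 only. TNFRSF21 (death receptor 6) rose by 1.63 and NGFR, a neurotrophin receptor with a death domain, by 1.62 at day 3 (limma adjusted p = 0.000188 and 0.00106), with 0.97 and 0.83 on day 5, not called.

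Among 7 ligands, TNF was called higher at days 3 and 5 and no other was called, which is 14.3% of the ligands on each of those days, near the 13.5% and 15.4% of all genes called. TNF read 11.48 to 12.04 before irradiation, 12.24 to 13.50 at day 3 and 12.01 to 13.40 on day 5, and rose by 1.12 (limma adjusted p = 0.00296) and 0.995 (limma adjusted p = 0.00163). ADAM17, the protease that sheds tumor necrosis factor and its receptors from the cell surface, rose by 1.06 at day 3 and by 0.88 on day 5 (limma adjusted p = 0.00139 and 0.000463).

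Of 16 genes of the receptor complex and its ubiquitin enzymes, 1 was called higher and 2 lower at day 3, 2 and 1 on day 5 and 0 and 1 at day 7, which is 18.8%, 18.8% and 6.25% beside 13.5%, 15.4% and 9.86% of all genes. RBCK1 (HOIL-1), a subunit of the linear ubiquitin ligase, rose by 1.38 at both day 3 and day 5 (limma adjusted p = 0.000761 and 2.87e-05). BIRC3 (cIAP2), a ubiquitin ligase of the receptor complex, fell by 1.5 at day 3 (limma adjusted p = 0.000308). TRAF3, an adaptor that restrains noncanonical NF-kappaB signaling, fell by 1.38 at day 3 and by 1.07 on day 5 (limma adjusted p = 0.000541 and 0.000884). By limma 0 of 11 kinases were called on any day, with 2, 5 and 2 at an unadjusted p under 0.05.

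Of 8 caspases and effectors 1 was called higher on each day, but not the same gene throughout. This is 12.5% of the list, beside 13.5%, 15.4% and 9.86% of all genes called. CASP10, the close relative of CASP8, read 7.12 to 8.17 before irradiation and 8.59 to 8.98 at day 5. It rose by 1.10 on day 5 and by 0.93 at day 7 (limma adjusted p = 0.000185 and 0.00344). At day 3 CASP10 was not called, at 0.66 (limma adjusted p = 0.0236), and the call of that day belonged to another gene. Of 13 modulators, 1 was higher and 2 lower at day 3, and 1 and 1 on days 5 and 7, which is 23.1%, 15.4% and 15.4% beside those same shares of all genes. PEA15, a death effector domain protein, fell by 0.96 at day 3 and by 1.0 on day 5 (limma adjusted p = 0.00173 and 0.000835). DEDD2, another protein with that domain, fell by 1.23 at day 7 (limma adjusted p = 0.000249).

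Without TNFRSF10B, the named pathway genes made 19 called changes against pre-irradiation. Of the 19, 7 held with every replicate number left out in turn, 11 with the animals as a block and 2 with scan session as a block, CASP10 and DEDD2 at day 7. Other settings ended further calls: DEDD2 at day 7 with quantile normalization (-0.76, limma adjusted p = 0.00788), CASP10 and FAS on day 7 with no filter on dim probes (0.93 and 1.02, limma adjusted p = 0.00724 and 0.00718), NGFR at day 3 with all 24 arrays in one fit (1.62, limma adjusted p = 0.00843) and with slide as a random block (1.61, limma adjusted p = 0.00964), and PEA15 at day 3 and FAS on day 7 in the authors' value table (-0.92 and 1.04, limma adjusted p = 0.00559 and 0.00513). The 8 calls lost with the animals as a block were FAS (1.40, limma adjusted p = 0.00841), NGFR (1.69, limma adjusted p = 0.00729), TNF (1.23, limma adjusted p = 0.0188), ADAM17 (1.09, limma adjusted p = 0.0219), RBCK1 (1.36, limma adjusted p = 0.00859), TRAF3 (-1.42, limma adjusted p = 0.00527) and PEA15 (-0.91, limma adjusted p = 0.0161) at day 3 and ADAM17 (0.87, limma adjusted p = 0.00501) on day 5. Inside session 2, limma called 0 of the 16 changes at days 3 and 5. Inside session 1, 2 of the 3 day 7 changes were called and FAS was not (1.03, limma adjusted p = 0.0129). With normexp background limma called 0 of the 19, and likewise none of the TNFRSF10B changes, where 139, 239 and 315 of all probes were called on days 3, 5 and 7 in place of 3652, 4543 and 2951. FAS at day 7 lost its call without any one of replicates 1, 3, 4, 5, 6 or 7, in a range of 0.91 to 1.10, and CASP10 on day 7 without 1, 2, 3, 4, 6 or 7, in a range of 0.83 to 1.03. TNF lost it at both days without 1, 3, 4 or 7 (0.85 to 1.28 and 0.87 to 1.10), PEA15 at day 3 without 1, 2, 4 or 7 (-1.02 to -0.91) and on day 5 without 2 (-1.09 to -0.94), and TRAF3 at day 3 without 4 (-1.46 to -1.29) and on day 5 without 1 or 7 (-1.14 to -1.02). At day 3, FAS lost its call without 1 or 4 (1.43 to 1.60), NGFR (1.37 to 1.85) and ADAM17 (0.92 to 1.18) without 1, 4 or 7 and RBCK1 without 1 (1.25 to 1.53).

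**Figure D4:**
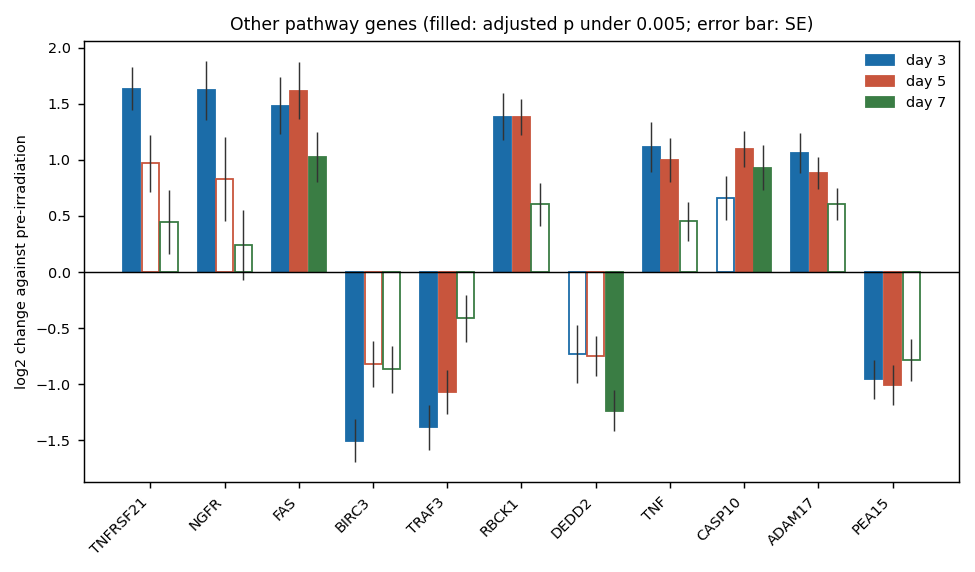
Log2 change against pre-irradiation, with its SE, of 11 of the 12 named pathway genes on days 3, 5 and 7; filled bars passed the adjusted threshold of 0.005. TNFRSF10B is left out because it was not well above background on any pre-irradiation array; FAS is filled on all 3 days, from 1.02 to 1.62, while TRAF3, BIRC3, PEA15 and DEDD2 point down.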

How the data were processed

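Blood RNA was hybridized to Agilent one-colour rhesus arrays, as the labels and headers say; the methods name a human array. Per the labels Feature Extraction 10.7 was used, and per the file headers 12.0.2.2. The deposited scanner files hold each spot's processed signal as an intensity, already background-subtracted. The authors' deposited value table holds log2 values normalized to the median array and was used as an alternative only.

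Here outlier spots were left out, spots of a probe averaged, log2 taken and each array shifted to the median array (shifts -2.03 to 0.87). The 27133 probes that were above background by the scanner's flag on 4 or more of the 24 arrays were tested with limma 3.58.1 in R 4.3.3, with each pair of groups in its own fit and Benjamini-Hochberg adjustment. Precision is limited by the number of arrays. The scripts were tested on simulated data. Symbols were given in the files for 23052 probes and through accessions for 898; 19653 had none.

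Same-numbered arrays of different days deviated together in every pair (correlations 0.129 to 0.652), so the numbers mark animals, and the fit with the animal as a block was an alternative. Other alternatives were the scaling, background, filter on dim probes, outlier spots, shared fit, slide, scan session, representative probe, threshold and each replicate left out. The genes and lists were chosen with earlier results of these data known. The named genes are all 9 members with every probe, up to 12 pathway genes called on any day with the largest changes, and the 3 genes most like each called member.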

Additional observations from a re-analysis of the deposited data

Results flagged for a closer look

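In groups of 4 to 7 arrays, each probe's highest and lowest array was set against the rest. Of 56 groups, 3 held an array whose gap to its nearest neighbour took up an unusually large share of the group's range; chance gives about 1 in 20. At the RIPK1 brightest probe, replicate 2 at day 3 lay lowest, at 7.93 against 8.41 for the next array, a gap of 0.933 of the range. At the overlapping CFLAR probe, replicate 1 at day 5 lay highest, at 12.11 against 11.46, a gap of 0.726 of the range. At the TNFRSF1A brightest probe, replicate 3 at day 5 lay lowest, at 15.38 against 15.97, a gap of 0.641 of the range.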

How the results depend on the processing

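The death receptor genes called against pre-irradiation at days 3, 5 and 7 (1, 2 and 1) became 0, 0 and 0 with normexp background, 0, 1 and 0 when only probes well above background on all 24 arrays were kept (a filter that removes USP2), 2 at day 3 and 2 at day 7 when any probe of a gene could carry the call, 3, 4 and 2 at an adjusted p under 0.05, 2 at day 3 in the authors' value table, and 2 at day 3 with the TNFRSF1B probe without shared sequence (chosen after seeing the data). With scan session as a block, and inside session 2, they were 0 at day 3 and 0 at day 5. Between days, an adjusted p under 0.05 gave 1 gene for day 7 against day 5 and 2 for day 7 against day 3. With the replicate block, the pairing of arrays by animal, 0 genes were called at day 3 and 1 at day 5. Leaving out each replicate number in turn gave 0 to 1 genes at day 3, 1 to 2 at day 5, 1 to 1 at day 7 and 0 between days and between the sexes. The share of all genes called also changes with the setting and is not given beside these counts. They therefore describe the settings and are no result about these genes.

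The other pathway genes called (12, 10 and 6) became 0, 0 and 0 with normexp, 2 at day 7 with no filter, 16 at day 5 with probes above background on all arrays, 10 at day 7 with all arrays in one fit and 10 with slide as a random block, 1 and 1 at days 3 and 5 with scan session as a block, 0 and 1 inside session 2, 3 at day 7 inside session 1, and 26, 29 and 13 at an adjusted p under 0.05. With the replicate block 3 were called at day 3. Leaving out a replicate gave 4 to 13, 6 to 11 and 2 to 3. Here too the share of all genes called at each setting is not given, so the counts are no result about the list.

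Signs turned only for uncalled changes. TNFRSF1B at day 7 became 0.59 with quantile normalization, 0.98 by its other probe and 0.995 in the value table, which holds only that probe; at day 5 it was -0.22 with normexp and -0.0665 with session as a block and inside session 2. With normexp CASP8 at day 5 was -0.0763, and USP2 was 0.31 between days 5 and 3 and -0.37 between days 7 and 5. RIPK1, for which the value table holds the second probe, was -0.14 at day 5 and -0.28 at day 7 there. With a replicate left out, the day 7 change ran from -0.16 to 0.16 for TNFRSF1A and from -0.10 to 0.11 for CASP8. The causes were not tested except where the missing probe is named. USP2, the second RIPK1 probe, the third CFLAR probe and TNFRSF10B were not well above background on every array, which limits the size of their changes.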
